A study of Mus musculus with 2 samples.

Results

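The dual-specificity phosphatases (DUSPs) were examined in mouse macrophages that lacked the phosphatase PAC1, encoded by Dusp2, and in wild-type macrophages after exposure to lipopolysaccharide (LPS). Every probe set that the array's annotation assigned to 1 gene symbol of the form Dusp plus a number was included, which gave 9 of the 8220 genes named on the array, with 10 of its 12654 probe sets. The 2 groups were Pac1-/- macrophages and Pac1+/+ (wild-type) macrophages from age-matched littermates, with 1 array each. In both groups the cells were drawn to the peritoneum by 2 ml of 3% thioglycollate, a sterile irritant, given 4 days before collection, were purified by adherence to plastic and received 100 ng/ml LPS for 6 hours. The sources used here state no strain, age or number of mice, nor which stretch of the Pac1 gene was removed. Cells without LPS were not analysed here, so all values are levels after LPS. With 1 array per genotype there is no replicate check and no test, and sizes are given without p-values.

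DUSPs remove phosphate from both the threonine and the tyrosine whose phosphorylation activates a MAP kinase, and so switch ERK, p38 or JNK off. The members that dock onto MAP kinases differ in where they act and which kinase they prefer, and several are themselves transcribed in response to MAP kinase signalling, which forms a feedback loop. In macrophages, LPS activates ERK, p38 and JNK through Toll-like receptor 4, and Dusp1 is known there as a brake on p38 and JNK that limits cytokine production. A further set, the atypical DUSPs, lacks the docking domain, and some of its members act on RNA or on ribosome assembly and not on MAP kinases.

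The sequences just upstream of the annotated start are shown for Dusp2, Dusp1 and Dusp6. These are the deleted gene and 2 MAP kinase phosphatases known to be transcribed on stimulation. No link between the sequences and the transcript levels was tested. The sequences are the 250 bases before the start, from RefSeq on build GRCm38.p6, read 5′ to 3′ on the gene's strand. For Dusp2 the stretch is chr2:127335909-127336158 on the plus strand, for Dusp1 it is chr17:26508473-26508722 on the minus strand, and for Dusp6 it is chr10:99262981-99263230 on the plus strand. Capitals mark the E-box CACGTG, the core TGACG of the cyclic AMP response element and the NF-kB-type letters GGNNTTTCC, each searched on both strands.
Dusp2: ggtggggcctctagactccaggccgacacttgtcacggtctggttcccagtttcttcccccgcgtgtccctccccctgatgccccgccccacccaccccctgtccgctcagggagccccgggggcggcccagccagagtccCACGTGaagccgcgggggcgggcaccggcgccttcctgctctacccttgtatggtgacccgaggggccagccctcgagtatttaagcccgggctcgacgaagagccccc
Dusp1: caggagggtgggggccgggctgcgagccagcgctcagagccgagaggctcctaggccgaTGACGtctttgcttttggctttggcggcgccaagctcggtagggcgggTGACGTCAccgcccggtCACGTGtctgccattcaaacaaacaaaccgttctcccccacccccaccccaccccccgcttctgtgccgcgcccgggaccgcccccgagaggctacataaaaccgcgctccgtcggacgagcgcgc
Dusp6: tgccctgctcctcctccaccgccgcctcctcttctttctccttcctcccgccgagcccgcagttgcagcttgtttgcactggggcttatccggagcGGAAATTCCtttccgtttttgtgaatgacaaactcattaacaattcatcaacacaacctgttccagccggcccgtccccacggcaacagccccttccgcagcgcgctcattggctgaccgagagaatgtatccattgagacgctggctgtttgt

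The Dusp2 stretch held 1 E-box, 109 bases before the start, and no TGACG. The Dusp1 stretch held 1 E-box at 126 bases, a full element TGACGTCA at 143 bases, which holds the core on both strands, and a further TGACG at 191 bases. The Dusp6 stretch held neither of these motifs, and its 1 match was to GGNNTTTCC on the opposite strand, at 154 bases. Among 32851 stretches of the same length before RefSeq starts, CACGTG occurred in 6.02%, TGACG in 17.8%, TGACGTCA in 1.55% and GGNNTTTCC in 4.93%. Of the 9 genes, 7 had an entry, and TGACGTCA was also found before Dusp8, at 107 and at 63 bases. Searches for the AP-1 site TGANTCA and the CArG box, each on both strands, had no match in the stretches of the 7 genes, against 6.75% and 1.47% of all stretches. The GC box GGGCGG, found in 32.7% of all stretches, occurred 3 times each before Dusp2, Dusp1 and Dusp8 and 5 times before Dusp16. TGACG was also found before Dusp8, Dusp11 and Dusp16. These matches describe letters in a window and are not sites of binding.

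The deposited values were MAS5 signals in arbitrary units, 1 per probe set, and levels were compared between the arrays for the same probe set only. A floor at the median of all signals, 36.4, stood in for detection calls. A probe set counted as eligible if either signal exceeded the floor, as did 5898 of 10276 probe sets with 1 gene symbol, and 5005 exceeded it on both arrays. The log2 ratio is that of the knockout over the wild-type signal, and its median over all eligible probe sets was 0.02. Of 13 macrophage probe sets 11 were above the floor on both arrays, with at least 1 for each of the 9 marker genes. Among them was Itgam, the gene of Mac-1, with a signal of 356.4 in knockout cells and 301.4 in wild-type cells. Ratios were above 0 for 8 of the 11 and below 0 for 3, against 47.7% below 0 among all eligible probe sets. Those below 0 were Mrc1 (295.2 in knockout and 360.5 in wild-type cells) and both Msr1 probe sets (239.9 and 295.7, 1365.5 and 2170.8). A second probe set of Cd68 (5.4 in knockout and 8.6 in wild-type cells) and a second of Csf1r (11.1 and 20.6) were below the floor on both. Of 8 T and NK cell probe sets, 1 (Cd4) was above the floor, on the wild-type array only, and the Cd3d, Cd3e and Cd3g signals were below it on both. All 5 B cell probe sets were above the floor in knockout cells and 4 in wild-type cells, of 8 mast cell and basophil probe sets 4 and 3 were, and of 9 neutrophil probe sets 6 and 5. The counts were 1 and 0 of 5 for eosinophils, 4 and 4 of 6 for dendritic cells, and 6 and 6 of 11 for mesothelial and stromal cells. Among these markers 4 probe sets were 2-fold or more apart. They were 1 of 5 eligible B cell probe sets and 1 of 1 for eosinophils. The others were 1 of 6 for mesothelial and stromal cells and 1 of 1 for T and NK cells. Of all eligible probe sets 1.09% were 2-fold or more lower and 1.20% were 2-fold or more higher. Cd79a, Prg2 and Cd4 were eligible through 1 array only. The B cell gene Cd79a had 100.2 in knockout cells and 20.7, below the floor, in wild-type cells, and the eosinophil gene Prg2 had 100.1 and 16.0, also below the floor. The other Prg2 probe set had 4.5 in knockout cells and 4.6 in wild-type cells, below the floor on both arrays. Lower in knockout cells were the stromal gene Acta2, with 52.2 against 133.3, and Cd4, with 32.8, below the floor, against 74.5.

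Of the 10 DUSP probe sets, 8 were above the floor on both arrays, each for a different gene, and 2 were below it on both. Dusp2 was the 1 that was lower in knockout cells by 2-fold or more, and 0 were higher by as much. Among all eligible probe sets 1.09% were 2-fold or more lower and 1.20% were 2-fold or more higher. The other 7 lay within 1.5-fold of the wild-type level, while of all eligible probe sets 5.85% were 1.5-fold or more lower and 6.53% were 1.5-fold or more higher.

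**Figure D1:**
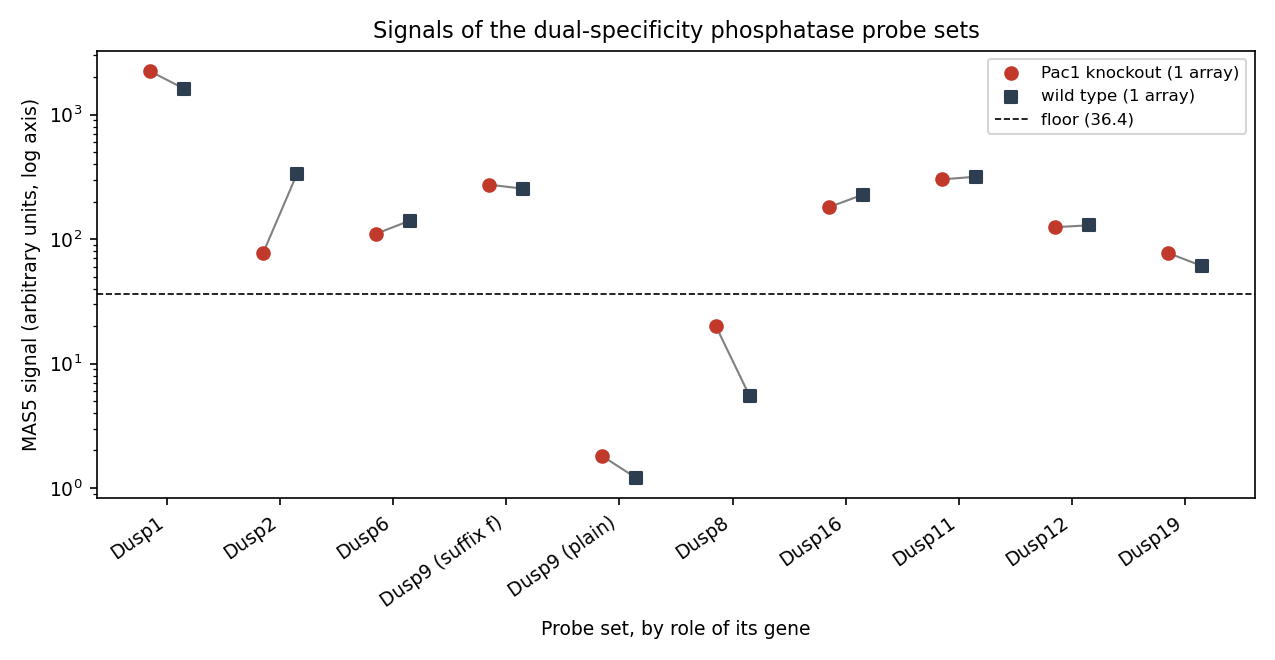
MAS5 signal (arbitrary units, log axis) of each of the 10 DUSP probe sets on the Pac1 knockout array (red circles) and the wild-type array (dark squares), with the floor of 36.4 as a dashed line and genes ordered by role, the nuclear and cytoplasmic MAP kinase phosphatases to the left and the atypical ones to the right. Each point is 1 array. The steepest line above the floor is that of Dusp2, 76.8 in the knockout against 333.0 in the wild type, and Dusp1 is higher in the knockout, 2238 against 1621.

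Among the nuclear, inducible MAP kinase phosphatases, Dusp2 and Dusp1 were measured and differed in opposite directions. Dusp2 encodes PAC1, which acts in the nucleus and is found mainly in blood cells. Its signal was 76.8 in knockout cells and 333.0 in wild-type cells, so the knockout array held 23.1% of the wild-type signal (log2 ratio −2.12, 4.34-fold lower). This was the lowest ratio of the 5898 eligible probe sets. The knockout signal was near the floor, at 2.11 times it, against 9.15 times in the wild type, and without detection calls it cannot be said whether it stood above background. Dusp2 has 1 probe set on this array, and the position of its probes relative to the deletion is unknown here, so the ratio checks the labels only in part. In such preparations, fewer cells of a type and less RNA per cell cannot be told apart. The summed signals of other blood cells' markers were 130 in knockout cells and 140 in wild-type cells for T and NK cells, 471 and 439 for B cells, and 918 and 960 for mast cells and basophils. For neutrophils they were 1343 and 1422, for eosinophils 131 and 34.2, and for dendritic cells 409 and 440. These sums hold members of opposite direction. Among B cell genes, Cd79a was at least 2.75-fold higher and the 2 Ms4a1 probe sets were 1.67-fold and 1.58-fold lower. Among mast cell and basophil genes, Tpsb2 was 1.63-fold and 1.66-fold higher on its 2 probe sets and Hdc was 1.36-fold lower. Of the 8 T and NK cell probe sets in the sum, 7 were below the floor on both arrays. Most of the eosinophil sum in knockout cells came from 1 Prg2 probe set, with 100.1 against 16.0 in wild-type cells. The other Prg2 probe set had 4.5 and 4.6. The part of other cells in the Dusp2 signal was not tested.

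By pattern, the 3 probe sets with both signals over the floor whose ratio was nearest to that of Dusp2 were those of Sh3bp1, of Il6, the interleukin-6 gene, and of Slc30a4, a zinc transporter gene. Sh3bp1 had a signal of 49.8 in knockout cells and 211.3 in wild-type cells (log2 ratio −2.09), Il6 had 366.4 and 1447.6 (−1.98), and Slc30a4 had 51.3 and 199.7 (−1.96). The likeness is the difference of log2 ratios from Dusp2, at most 0.16 here, and rests on 1 array of each genotype. With 2 arrays the pattern is a single ratio. That of Dusp2 was the lowest, so these 3 are the next-lowest ratios and no further likeness is shown. The knockout signals of Sh3bp1 and Slc30a4 were near the floor of 36.4.

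Dusp1 encodes MKP-1, the nuclear phosphatase with the preference for p38 and JNK named above. Its signal was 2238 in knockout cells and 1621 in wild-type cells (log2 ratio 0.46, 1.38-fold higher). It was the highest ratio of the 8 eligible members, and 2.58 above that of Dusp2 on the log2 scale. Dusp8, below the floor, had a higher ratio with a lower floor or none (1.03 and 1.88). Over all eligible probe sets 10.7% had a ratio at or above that of Dusp1. Both Dusp1 signals were far above the floor, and of the 1240 probe sets with both signals above 10 times the floor, 22, or 1.77%, had a ratio at or above it. The ratio was 0.35 with the arrays scaled to the same median, 0.47 after quantile normalization and 0.45 after loess. The other alternative settings could not move it from 0.46, because Dusp1 has 1 probe set and its signals exceed every floor used.

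**Figure D2:**
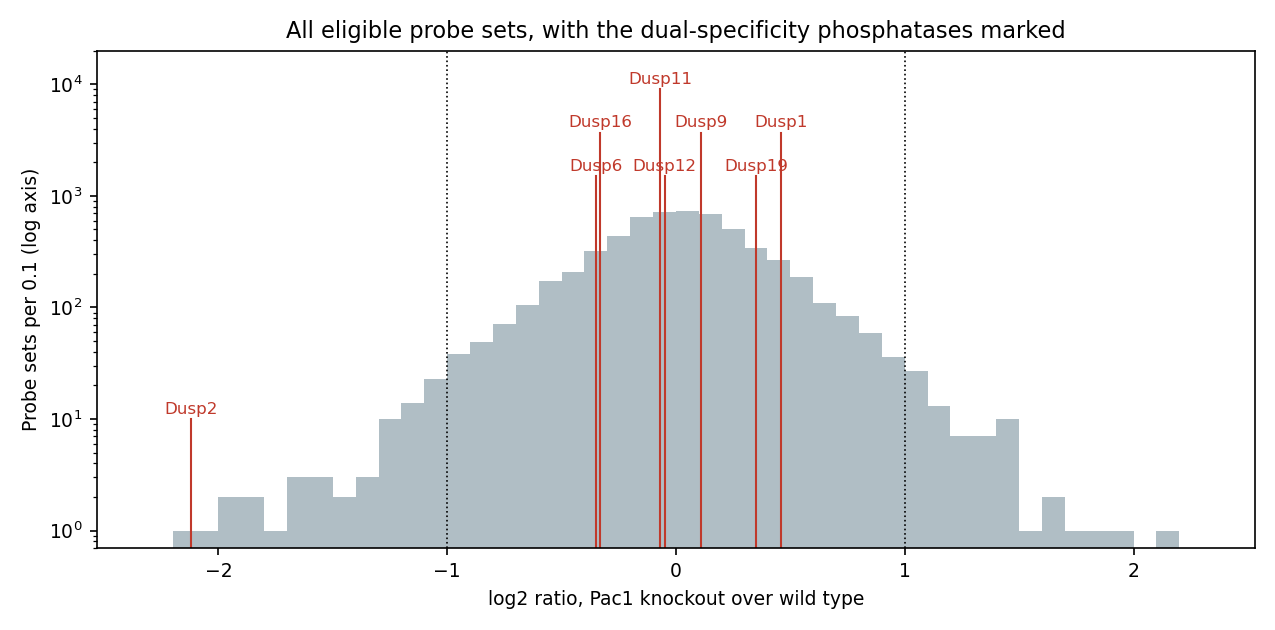
Number of eligible probe sets (log axis) per 0.1 of the log2 ratio of Pac1 knockout over wild type, for all 5898 eligible probe sets (grey bars), with the 8 eligible DUSP probe sets marked by red lines whose heights are chosen for legibility. Dotted lines stand at 2-fold. Dusp2 is at the lower end at −2.12, and the other 7 lie between −0.35 and 0.46.

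The cytoplasmic ERK phosphatases were represented by Dusp6 and Dusp9. Dusp6 encodes MKP-3, which is selective for ERK and is induced by ERK signalling itself. Its signal was 110.4 in knockout cells and 140.8 in wild-type cells (log2 ratio −0.35, 1.28-fold lower). Over all eligible probe sets 14.4% had a ratio at or below that of Dusp6, so a difference of this size was common on these arrays. Dusp6 was 0.82 below Dusp1 and 1.77 above Dusp2 in log2 ratio.

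Dusp9 encodes MKP-4, an ERK phosphatase best known from the placenta, and its 2 probe sets disagreed on whether the gene was measured at all. One probe set had signals of 1.8 in knockout cells and 1.2 in wild-type cells, far below the floor. The other had 273.5 in knockout cells and 254.1 in wild-type cells (log2 ratio 0.11), and its suffix marks a probe set that can match other transcripts of a family. Its ratio was −0.01 with the arrays scaled to the same median. The brighter probe set therefore gives no sure level of Dusp9, and neither one was 1.5-fold apart above the floor.

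The phosphatases that prefer JNK and p38 were represented by Dusp16 and Dusp8. Dusp16 encodes MKP-7, which shuttles between nucleus and cytoplasm. Its signal was 180.3 in knockout cells and 227.0 in wild-type cells (log2 ratio −0.33, 1.26-fold lower), and 15.4% of all eligible probe sets had a ratio at or below this. Dusp8, a gene known mainly from brain and heart, was below the floor on both arrays with signals of 20.2 in knockout cells and 5.5 in wild-type cells, so no fold is given. With the lower floor of the 25th percentile it was higher in the knockout by a log2 ratio of 1.03, a lower bound because the wild-type signal stayed below that floor.

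The 3 atypical DUSPs on the array were close to the wild-type level. Dusp11 encodes an enzyme that removes phosphates from the 5′ end of RNA, and had signals of 301.7 in knockout cells and 317.0 in wild-type cells (log2 ratio −0.07). Dusp12, whose protein binds zinc and takes part in ribosome assembly, had 124.5 in knockout cells and 129.1 in wild-type cells (−0.05). These 2 genes had the ratios nearest to 0 in the family, and 39.3% and 41.1% of all eligible probe sets were as low or lower. Dusp19, which encodes a small phosphatase linked to the JNK pathway, had 77.2 in knockout cells and 60.7 in wild-type cells (0.35, 1.27-fold higher), near the floor on both arrays. Of all eligible probe sets 16.6% had a ratio at or above that of Dusp19.

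Across the 8 eligible probe sets, 5 had ratios below 0 and 3 above, with a median of −0.06, while 47.7% of all eligible probe sets were below 0. Without Dusp2 the median of the other 7 was −0.05 and their ratios spanned 0.82. The MAP kinase phosphatases other than Dusp2 (Dusp1, Dusp6, Dusp9 and Dusp16) were higher in some cases and lower in others. With the arrays scaled to the same median, which moved the median of all eligible probe sets by −0.11, the Dusp9 ratio turned to −0.01 and the signs of the others were as before.

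In place of replicates, probe sets of the same gene give a rough measure of technical spread. For 520 genes with several probe sets that exceeded the floor on both arrays, the log2 ratios of a gene differed by a median of 0.32 between its lowest and highest probe set, and by 1.06 at the 95th percentile. A range of 0.35 or more, the size of the Dusp6 ratio, occurred in 45.8% of these genes, and one of 0.46 or more, the size of the Dusp1 ratio, in 33.5%. A range as large as the Dusp2 ratio occurred in 0 of the 520. By this measure the ratios of Dusp1, Dusp6, Dusp16 and Dusp19 are within the disagreement seen between probe sets of 1 gene, and that of Dusp2 is beyond it. A range over several probe sets is an unlike measure to the distance of 1 ratio from 0. It tends to be wider, so the comparison is lenient for the ratios called within it. Probe sets whose suffix marks possible matches to other transcripts were not left out. The 520 genes were not matched to the members for brightness, so the measure does not allow for the bright Dusp1 signals. Probe sets of a gene share the RNA of the same 2 arrays, so this spread leaves out differences between mice.

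**Figure D3:**
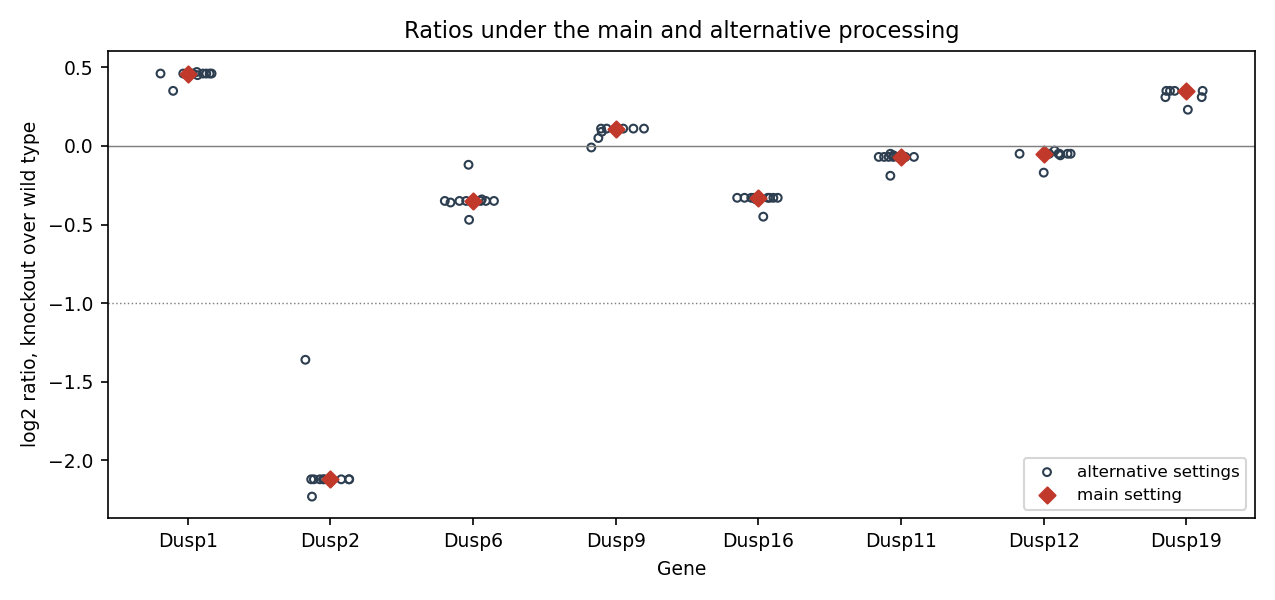
Log2 ratio of Pac1 knockout over wild type for the 8 eligible DUSP genes under the main processing (red diamonds) and under each alternative setting that gave a value (open circles). Dusp2 is between −2.23 and −1.36 throughout, the upper value with the floor raised to the 75th percentile, and Dusp1 between 0.35 and 0.47.

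The genes around the phosphatases were taken from lists of the MAP kinase pathway. For the 2-fold counts of these lists, the shares over all eligible probe sets are 1.09% lower and 1.20% higher. Of the MAP kinases, the substrates of the phosphatases, 5 of 11 probe sets were eligible and 0 were 2-fold apart, with a median log2 ratio of −0.07. Mapk14, the main p38 gene, had 395.2 in knockout cells and 355.5 in wild-type cells (0.15), and Mapk8, the JNK1 gene, had 90.9 and 95.3 (−0.07). Mapk9, the JNK2 gene, was highest (42.2 in the knockout, with 31.1 in the wild type below the floor, at least 1.16-fold higher). Mapk7, the ERK5 gene, was lowest (17.6 in the knockout, below the floor, and 44.2 in the wild type, at least 1.21-fold lower). The genes of ERK1 and ERK2 were not analysed here.

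Among the kinases upstream of MAP kinases, 14 of 24 probe sets were eligible and 0 were 2-fold apart. Ratios were above 0 for 8 and below 0 for 6, close to the 47.7% below 0 among all eligible probe sets. Their median was 0.13, and 0.03 with the arrays scaled to the same median. The highest was Map2k4, a kinase that activates JNK, with 294.7 in knockout cells and 182.1 in wild-type cells (log2 ratio 0.69), and the lowest was Araf, a Raf kinase gene of the ERK cascade, with 61.7 and 75.3 (−0.29). Map3k8, the gene of the kinase TPL2 that links Toll-like receptors to ERK, had 142.4 in knockout cells and 149.2 in wild-type cells (−0.07).

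Of the kinases that MAP kinases activate, 6 of 7 probe sets were eligible and 0 were 2-fold apart. Their median was 0.01, and it was negative with the arrays scaled to the same median (−0.11), after quantile normalization (−0.02) and after loess (−0.03). Mapkapk2, the p38 target that stabilises cytokine mRNAs, held the highest ratio on a dim probe set (80.1 in knockout cells and 54.9 in wild-type cells, 0.54), but its bright probe set had 3372 and 3758 (−0.16). Mknk2, a kinase downstream of ERK and p38, held the lowest ratio (21.2 in the knockout, below the floor, and 63.2 in the wild type, at least 1.74-fold lower), while its other probe set was higher (70.0 and 49.3, 0.51). For both genes the direction thus depended on the probe set.

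The immediate early and MAP kinase-responsive genes, mostly transcription factors, had 15 of 23 probe sets eligible, 10 of them below 0 and none 2-fold apart, with a median of −0.15. Of all eligible probe sets 47.7% were below 0, 1.09% were 2-fold or more lower and 1.20% were 2-fold or more higher. Ier3, a stress-induced gene that ERK acts on, was lowest at 533.4 in knockout cells and 859.7 in wild-type cells (log2 ratio −0.69). Egr1, a classical ERK target, was highest on a dim probe set (51.6 and 41.6, 0.31). The suffix of that probe set, like that of the brighter Dusp9 one, marks possible matches to other transcripts of a family. The other Egr1 probe set had 138.3 in knockout cells and 122.6 in wild-type cells (0.17). Jun had 55.3 in knockout cells and 60.8 in wild-type cells (−0.14), and Fos was below the floor on both arrays.

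Other inhibitors of the pathway, such as serine/threonine phosphatases and Ras GTPase-activating proteins, had 9 of 13 probe sets eligible and none 2-fold apart. Ratios were above 0 for 7 and below 0 for 2, against 47.7% below 0 among all eligible probe sets, and the median of 0.12 came to 0 after rounding with the arrays scaled to the same median. Rasa1, which turns off Ras upstream of ERK, was lowest at 67.9 in knockout cells and 129.6 in wild-type cells (log2 ratio −0.93, and −1.05 with the arrays scaled to the same median). Ppm1b, a phosphatase of the PP2C type, was highest (140.9 and 101.3, 0.48), with −0.30 from another probe set.

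LPS-induced transcripts known to be under MAP kinase control had 16 of 17 probe sets eligible, for 15 genes, Cxcl1 having more than 1. Of the 16, 15 were below 0, against 47.7% of all eligible probe sets, but Zfp36 among them was 0 after rounding. The median was −0.37. It was −0.48 with the arrays scaled to the same median, −0.45 after quantile normalization and −0.42 after loess. The list was chosen with earlier results of these data known. The 1 that was 2-fold lower, as were 1.09% of all eligible probe sets, was that of Il6, given above, and 0 were 2-fold higher. Tnf, the tumour necrosis factor gene, had 6490 in knockout cells and 7817 in wild-type cells (log2 ratio −0.27). Nos2, the inducible nitric oxide synthase gene, was highest at 172.2 in knockout cells and 153.9 in wild-type cells (0.16), and Zfp36, the gene of an RNA-binding protein that promotes cytokine mRNA decay, had 1893 and 1898. These signals came from the same 2 arrays as the Dusp1 and Dusp2 signals, so no relation between them could be tested.

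**Figure D4:**
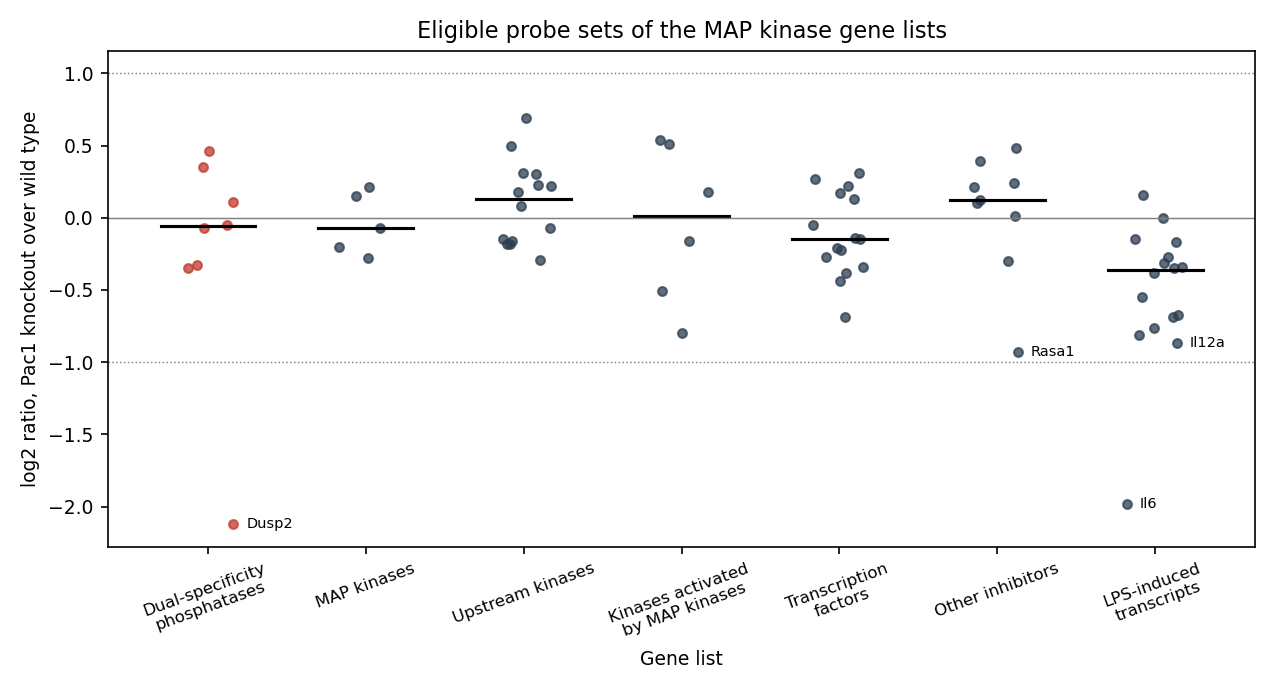
Log2 ratio of Pac1 knockout over wild type for the eligible probe sets of the DUSP family (red) and of 6 lists of the MAP kinase pathway (dark), 1 point per probe set, with black bars at each list's median and dotted lines at 2-fold. Dusp2 at −2.12 and Il6 at −1.98 are the 2 points beyond 2-fold, and the medians run from −0.37 for LPS-induced transcripts to 0.13 for upstream kinases.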

How the data were processed

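RNA of thioglycollate-elicited, LPS-treated macrophages was measured on 2 Affymetrix arrays, 1 per genotype. The authors deposited 1 linear intensity per probe set and array, computed with MAS5 per the submitters' processing notes, which give no version or settings. Both arrays had a 2% trimmed mean of 150 as deposited. Of the 12654 probe sets, 10298 had 1 gene symbol in the platform annotation, 363 had several and 1993 had none, and without control probe sets 10276 were used. Symbols were checked by Entrez identifier against RefSeq (GRCm38.p6), which changed 0.

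From these intensities, arrays were scaled to the same 2% trimmed mean (factors of 1 after rounding), signals were raised to the floor of 36.4, and log2 ratios were taken (Python 3.11.15, numpy 2.4.6, statsmodels 0.14.6 for loess). A fold is written "at least" where 1 signal was below the floor. Every DUSP probe set was reported, and of each list its counts, median, lowest and highest member and a few preset genes. A ratio was counted as 2-fold at a log2 value of 1. The members, lists and alternatives were chosen with earlier results of these data known. The number of arrays limits the precision. Arrays of this generation carry some probe sets made to the wrong strand, which could not be told from the rest. Alternatives covered scaling, floor and choice of probe sets.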

Additional observations from a re-analysis of the deposited data

How the results depend on the processing

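No paired analysis was possible because each genotype had 1 array. Over 10 alternatives, 76 of 77 ratios of the 8 eligible DUSP genes kept their sign, the exception being Dusp9 with the arrays scaled to the same median, and 76 stayed within 1.5-fold of the main ratio. The exception among these was Dusp2 with the floor raised to the 75th percentile, where its knockout signal fell below the floor and the log2 ratio of −1.36 is a bound. Many of the 77 ratios could not change, so these counts overstate how far the ratios were tested. Leaving out the scaling changed little because its factors were 1 after rounding. A floor below both signals left a ratio as it was, and so did the choice of probe sets for genes with 1 probe set. Dusp2 was the 1 DUSP probe set 2-fold lower under all 10. The number 2-fold higher was 1 with the floor lowered to the 25th percentile and 1 without any floor, in both cases Dusp8. The DUSP median lay between −0.18 and 0.03, positive only without a floor.

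Over all probe sets, 71 were 2-fold higher and 64 lower. The counts were 596 and 455 with the floor at the 25th percentile, 3 and 8 at the 75th, and 1189 and 927 with no floor. With the arrays scaled to the same median they were 49 and 101, so that 32.7% of the 2-fold probe sets were higher against 52.6% in the main processing. When the ratios of a gene's probe sets were averaged they were 56 and 40. The floor decides which dim signals can reach 2-fold, and signal over background limits what the members near or below the floor (Dusp8, Dusp9, Dusp19, and Dusp2 in the knockout) can show.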
